A study of Mus musculus with 6 samples.

Results

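The genes described are 10 surface markers and regulators of hair bulge (HB) stem cells (SCs), taken by symbol from the 22295 genes of the deposited count table. They are Cd34, Cd200, Lgr5, Sox9, Lhx2, Tcf7l1, Tcf7l2, Nfatc1, Foxc1 and Tbx1, and all 10 were found and had more than 3 counts in every library. RNA was sequenced from GFP-positive keratinocytes that were sorted out of back skin, with 1 library for each of 3 K19 Itga3 WT and 3 K19 Itga3 KO mice. WT mice carried K19(Cre-ERT) and the mTmG reporter, KO mice carried the same alleles plus Itga3 fl/fl, and both lines were bred on FVB (FVB/N in the methods). All 6 mice received tamoxifen (10 mg/ml, over 4 days, at 6 weeks of age in the labels, whereas the methods give a lower injected concentration and add topical tamoxifen), 1 dose of 30 μg DMBA in 200 μl acetone at 7 weeks, and 12.34 μg TPA bi-weekly for 2 weeks. DMBA is a mutagen that initiates skin tumors and TPA is a phorbol ester that promotes them, so the cells come from the initiation stage, before tumors form. Tamoxifen lets Cre act in K19-expressing HB cells, which turns these cells and their progeny GFP-positive in both lines and removes the floxed part of Itga3 in KO mice. The sorted cells are therefore HB cells together with their descendants, the K19 promoter recombines only some HB cells, and skin without DMBA and TPA was not analysed here. The comparison asks whether HB SC identity was lost where Itga3, which encodes the α3 chain of the laminin receptor integrin α3β1, was deleted.

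The bulge is the part of the outer root sheath that houses the slow-cycling SCs of the hair follicle (HF). Its cells are known for the sialomucin CD34 and the immune regulatory glycoprotein CD200 on their surface, and their lower part, with the hair germ below it, for the R-spondin receptor LGR5. A group of transcription factors maintains this identity: SOX9 and LHX2 specify and maintain them, TCF7L1 and TCF7L2 act on Wnt target genes, NFATC1 and FOXC1 keep them quiescent, and TBX1 helps them renew.

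Libraries held 20578309 to 23670507 counts on genes, so that the floor of 3 counts corresponds to 0.127 to 0.145 CPM (counts scaled to a common library total of 1e6, with TMM normalization factors). The columns of the table give the genotype but no mouse number that the labels use, so the libraries of a genotype are its replicates and were lettered a to c by their place in the table, which is also the order of every 3 values given below for a genotype. Itga3, the targeted gene, stood at 371, 252 and 271 CPM in the WT and at 131, 124 and 134 CPM in the KO libraries. The log2 fold change was −1.204 (adjusted p = 0.00283 in the test named below), so KO libraries still held 43.4% of the WT level. These counts cover the whole gene and not only its floxed part. In skin stained soon after tamoxifen, the paper reports efficient α3β1 deletion from GFP-positive cells. Summed over Krt5, Krt14, Krt15, Trp63 and Cdh1, keratinocyte markers reached 31009 to 47658 CPM in WT and 36846 to 42530 CPM in KO libraries. KO and WT were compared by the quasi-likelihood test of edgeR, with p-values adjusted after Benjamini and Hochberg over 21681 genes, of which 146 (0.673%) had an adjusted p below 0.05, 46 of them lower (0.212%) and 100 higher in KO (0.461%). Leaving out WT c left 5 such genes and leaving out KO a left 10, whereas leaving out WT a gave 521, and the calls named below are given with the libraries they rest on.

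Of the 10 genes, Cd34 alone passed the test, with a lower level in KO, and 2 of the 10, Cd34 and Lgr5, had an unadjusted p below 0.05, as did 11.5% of all tested genes. Log2 fold changes were below 0 in 7 of the 10 genes and above 0 in 3, with a median of −0.083, beside a share of 50% below 0 among all tested genes. Without KO a, 5 of the 10 lay below 0 and the median was 0.013, and without WT a the median was −0.021. The libraries of WT and KO did not overlap for Cd34 (lower in KO, as for 8.23% of all genes, with 8.03% higher in KO) and overlapped for the other 9. A log2 fold change of −1 lay below the 95% interval of each of these 9. Smaller changes lie within the intervals given for each gene.

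**Figure D1:**
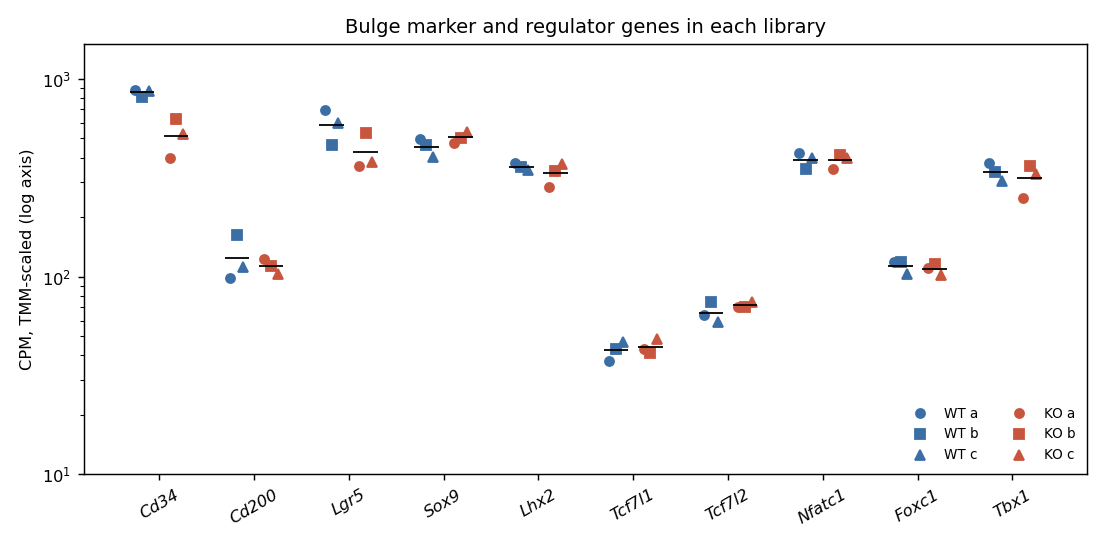
Level of each of the 10 bulge genes in every library, in CPM on a log axis, with blue symbols for the 3 WT and red symbols for the 3 KO libraries, 1 shape per library letter and a black line at the group mean. The 3 KO values of Cd34 (399 to 625 CPM) lie below its 3 WT values (806 to 881 CPM), and in the other 9 genes the groups overlap.

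Cd34 (ENSMUSG00000016494, GRCm38, chromosome 1, 194938821 to 194961292) encodes the sialomucin by which HB SCs are usually sorted. It stood at 881, 806 and 872 CPM in WT and at 399, 625 and 526 CPM in KO. The 3 WT libraries lay close together and all 3 KO libraries lay below them, KO a furthest. Mean levels were 853 ± 40.7 CPM (SD, n = 3) for WT and 516 ± 113 CPM (SD, n = 3) for KO, or 60.5% of WT. The log2 fold change was −0.72 (standard error, SE, 0.14, 95% interval −1.04 to −0.41, adjusted p = 0.0462 from edgeR). An exact two-sided permutation test over the libraries gave p = 0.1, the smallest that 3 against 3 allow. Even after this drop Cd34 remained above the CPM of 99.0% of tested genes in KO, against 99.5% in WT. The direction held in all 12 alternatives, but 7 of them lost the call, the adjusted p being 0.119 in limma-voom, 0.131 with edgeR's filterByExpr and 0.133 where each library had to hold 10 counts or more. Without 1 library the adjusted p from edgeR was 0.0685 (WT b), 0.379 (WT c), 0.250 (KO a) and 0.184 (KO c), whereas the call held without WT a (0.0354) and without KO b (0.0175). Without KO a the log2 fold change was −0.57.

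Cells other than keratinocytes also express Cd34, among them endothelial cells and fibroblasts. In bulk libraries, fewer cells of a type and less RNA per cell cannot be told apart. The 6 endothelial markers summed to 5.73 to 8.72 CPM in WT and to 3.70 to 5.06 CPM in KO libraries, with Cdh5 and Emcn at or below 3 counts in every library. Log2 fold changes were above 0 in 3 of them and below 0 in 3. Of these Tek passed in DESeq2, as lower, and none in edgeR or limma-voom. An unadjusted p below 0.05 in edgeR was found for 2, beside 11.5% of all tested genes. These were Tek, lower in KO (−1.49, mean 3.72 CPM in WT and 1.32 CPM in KO), and Pecam1, higher in each KO than in each WT library (0.64, mean 1.14 CPM in WT and 1.78 CPM in KO). The 6 fibroblast markers summed to 116 to 178 CPM in WT and to 48.1 to 80.3 CPM in KO libraries. The KO sums were thus lower without overlap. Log2 fold changes were −1.19 for Col1a1, −1.18 for Col1a2 and −1.30 for Pdgfra (at most 1.33 CPM), and above 0 for Col3a1, Lum and Dcn. The list median of 0.33 falls in the gap between these sets of genes and is close to no gene. None of the 6 passed in edgeR or limma-voom, and in DESeq2 Col1a2 passed as lower and Dcn as higher. In edgeR 5 had an unadjusted p below 0.05, beside 11.5% of all tested genes. Nearly all of the summed level came from Col1a1 (123, 40.4 and 92.9 CPM in WT) and Col1a2 (53.1, 72.9 and 59.8 CPM). Col1a1 lies on chromosome 11 at 94936224 to 94953042, close to the targeted Itga3 at 95044474 to 95076801. An effect of the altered Itga3 locus on Col1a1 was not tested. Col3a1 had 0 counts in each WT library, Lum stayed at or below 3 counts throughout and Dcn reached at most 5.44 CPM. The part of endothelial cells and fibroblasts in the change of Cd34 was not tested.

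To show the regulatory sequence of the gene that fell beside that of the other surface glycoprotein, the 250 bases before each RefSeq transcription start (GRCm38.p6) are printed 5′ to 3′ on the strand of the gene. The Cd34 window is chr1:194938571-194938820 on the plus strand and the Cd200 window chr16:45409054-45409303 on the minus strand. Both end at the base before the gene as the count table places it. Capitals mark matches, on either strand, to CTTTGA (TCF/LEF factors), GGAAA (NFAT factors), TGANTCA (AP-1, the factor through which phorbol esters such as TPA act on many genes) and GGAATG (TEAD factors). GGAAA and GGAATG share only their first 4 letters, so no match counts for both.
Cd34: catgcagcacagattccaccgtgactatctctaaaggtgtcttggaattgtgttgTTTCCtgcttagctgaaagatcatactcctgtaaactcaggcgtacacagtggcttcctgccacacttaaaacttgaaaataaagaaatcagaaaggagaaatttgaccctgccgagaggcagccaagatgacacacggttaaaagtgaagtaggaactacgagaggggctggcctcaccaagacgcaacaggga
Cd200: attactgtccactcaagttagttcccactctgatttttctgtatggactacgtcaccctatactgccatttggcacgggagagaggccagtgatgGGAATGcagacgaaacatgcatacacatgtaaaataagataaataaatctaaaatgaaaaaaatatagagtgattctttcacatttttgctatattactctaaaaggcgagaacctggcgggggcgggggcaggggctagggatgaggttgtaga

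The Cd34 window held 1 match, to the NFAT letters on the opposite strand, starting 195 bases before the gene. The Cd200 window held 1 match, to the TEAD letters, starting 155 bases before the gene. Over 32851 windows of the same length in the RefSeq table, 55.6% held the NFAT letters, 12.6% the TEAD letters, 13.8% the TCF/LEF letters and 6.75% the AP-1 letters. A match is a run of letters and was not tested as a site. Windows were found for 7 of the 10 genes, not for Lgr5, Sox9 and Nfatc1, and only those of Cd34 and Cd200 are printed. The NFAT letters also matched in each window of Lhx2 and in that of Foxc1, genes that did not pass the test. None of the letters matched in the windows of Tcf7l1, Tcf7l2 and Tbx1.

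Lgr5 (ENSMUSG00000020140, chromosome 10, 115450311 to 115587780), a receptor that strengthens Wnt signaling when R-spondins bind it, stood at 695, 463 and 600.4 CPM in WT and at 362, 530.2 and 381 CPM in KO. KO a and KO c lay below every WT library, and KO b lay between WT b and WT c. Means were 586 ± 116 CPM (SD, n = 3) for WT and 424 ± 92.1 CPM (SD, n = 3) for KO, or 72.4% of WT. The log2 fold change of −0.47 (SE 0.17, 95% interval −0.83 to −0.10) did not pass after adjustment over all genes (adjusted p = 0.283 from edgeR). It kept its sign in all 12 alternatives, between −0.65 without KO b and −0.32 without WT a, and passed in none of them.

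The plot of Cd34 and Lgr5 by alternative shows that the size of both differences changed less between tools than between sets of libraries.

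**Figure D2:**
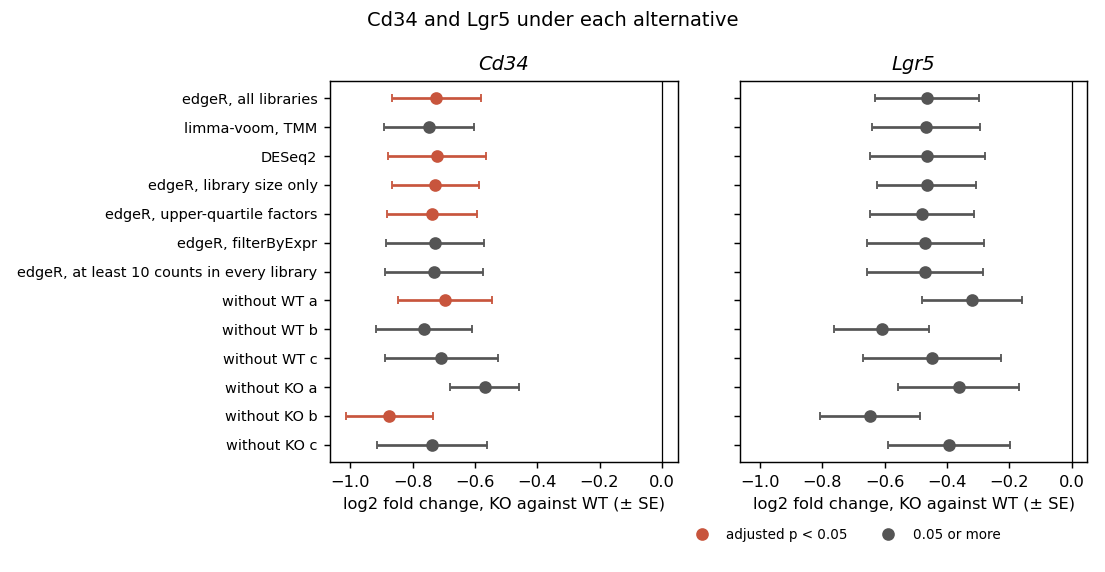
Log2 fold change of Cd34 and Lgr5 (± standard error) under the main analysis in the top row and each of 12 alternatives below it, in red where the adjusted p was below 0.05 and otherwise in grey. Every estimate lies below 0, that of Cd34 between −0.87 and −0.57 and that of Lgr5 between −0.65 and −0.32.

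The summed level of 5 upper follicle markers ran opposite to Lgr5 from library to library, which its largest contributor, Krt79, did as well, whereas the other markers did not share this order. The sum over Lrig1, Plet1, Gata6, Krt79 and Lgr6 was 766, 1375 and 835 CPM in WT and 1884, 1120 and 1585 CPM in KO, with WT b above KO b. Ordered by this sum from highest to lowest, the libraries run KO a, KO c, WT b, KO b, WT c and WT a, which is their order by Lgr5 from lowest to highest. Krt79, a keratin of the infundibulum and the upper follicle, gave much of the sum and the same order, at 288, 895 and 385 CPM in WT and 1359, 590.3 and 1024 CPM in KO. Lrig1, which restrains growth factor signaling in upper follicle SCs, was at 131 CPM lowest in WT a, but at 230 CPM highest in KO c. Lgr6 ran with Lgr5 in being highest in WT a (247 CPM) and lowest in KO a (159 CPM). Plet1 was lowest in WT b (63.2 CPM), and Gata6 was highest in WT b (7.70 CPM) and at 3.83 CPM in KO a. Cd34 was lowest in KO a and KO c as well, and WT b was the lowest of its 3 WT libraries. This order was noticed after the values were seen, and its part in the values of Lgr5 and Cd34 was not tested.

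Cd200 (ENSMUSG00000022661, chromosome 16, 45382135 to 45409053), whose product restrains immune cells that carry the CD200 receptor, stood at 98.0, 163 and 112 CPM in WT and at 123, 113 and 103 CPM in KO. WT b was the highest and WT a the lowest library, so all KO libraries lay inside the WT range. The log2 fold change was −0.14 (SE 0.16, 95% interval −0.48 to 0.21, adjusted p = 0.735 from edgeR), and it was 0.11 without WT b. Among the 10 genes Cd200 spread most between WT libraries, with an SD of 0.38 on the log2 CPM scale, against 0.066 for Lhx2 and 0.070 for Cd34.

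**Figure D3:**
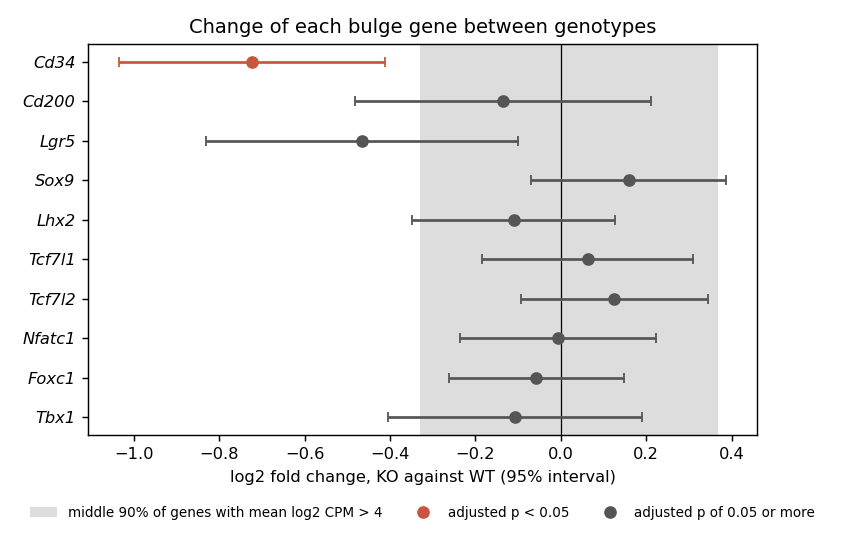
Log2 fold change of KO against WT for each of the 10 genes, with its 95% interval from edgeR, where red marks an adjusted p below 0.05, grey points did not pass, and the shaded band holds the middle 90% of the 8575 tested genes with a mean log2 CPM above 4 (−0.33 to 0.37). Cd34 at −0.72 is the red point, and Lgr5 at −0.47 is the other one to the left of the band.

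None of the 7 transcription factor genes passed in edgeR (0 of 7, also 0 at an unadjusted p below 0.05 and 0 in limma-voom and DESeq2). Their log2 fold changes lay between −0.11 (Lhx2) and 0.16 (Sox9), and their summed level was 1660 to 1889 CPM in WT and 1582 to 1868 CPM in KO libraries. The summed level of the 3 surface molecules was 1433 to 1674 CPM in WT and 883 to 1268 CPM in KO libraries.

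Sox9 (ENSMUSG00000000567, chromosome 11, 112782224 to 112787760), which specifies the bulge lineage, stood at 495, 463 and 403 CPM in WT and at 473, 505 and 542 CPM in KO. KO c was the highest and WT c the lowest library, and the log2 fold change was 0.16 (SE 0.10, 95% interval −0.070 to 0.39, adjusted p = 0.633 from edgeR). Sox9 lies on the chromosome of the targeted gene, 17.7 Mb from Itga3. Lhx2 (ENSMUSG00000000247, chromosome 2, 38339281 to 38369733), a LIM homeobox factor that maintains follicle SCs, stood at 377, 358 and 344 CPM in WT and at 285, 343 and 371 CPM in KO libraries. KO a lay furthest below the WT range, KO b just below it and KO c inside it. The log2 fold change of Lhx2 was −0.11 (SE 0.11, 95% interval −0.35 to 0.13, adjusted p = 0.681 from edgeR), and it was −0.0096 without KO a and −0.20 without KO c.

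Tcf7l1 and Tcf7l2 encode paralogous TCF/LEF factors that can repress Wnt target genes when β-catenin is absent. Tcf7l1 (ENSMUSG00000055799, chromosome 6, 72626378 to 72789254) stood at 37.4, 43.1 and 46.7 CPM in WT and at 43.0, 41.3 and 48.7 CPM in KO libraries, with a log2 fold change of 0.063 (95% interval −0.18 to 0.31). Tcf7l2 (ENSMUSG00000024985, chromosome 19, 55741810 to 55933654) stood at 64.0, 74.1 and 59.0 CPM in WT and at 70.5, 70.0 and 74.5 CPM in KO libraries, with a log2 fold change of 0.13 (95% interval −0.094 to 0.34). In both genes the KO libraries mixed with the WT libraries, and the adjusted p from edgeR was 0.857 for Tcf7l1 and 0.681 for Tcf7l2. These were the least abundant of the 10 genes. Tcf7l1 rested on 816 counts in the library where it was lowest, which gives a counting error of 3.50%, less than the SD of 4.66 CPM around a mean of 42.4 CPM among the WT libraries.

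Nfatc1 (ENSMUSG00000033016, chromosome 18, 80606205 to 80713071), the calcineurin-responsive factor that keeps HB SCs quiescent, stood at 422, 349 and 400.1 CPM in WT and at 352, 414 and 399.6 CPM in KO libraries. The WT range covered all 3 KO libraries, and the log2 fold change was −0.0066 (SE 0.11, 95% interval −0.24 to 0.22, adjusted p = 0.999 from edgeR). Foxc1 (ENSMUSG00000050295, chromosome 13, 31806691 to 31810643), a forkhead factor of the quiescent bulge, stood at 119, 118 and 104 CPM in WT and at 110.3, 115 and 102 CPM in KO libraries, with a log2 fold change of −0.058 (95% interval −0.26 to 0.15). Tbx1 (ENSMUSG00000009097, chromosome 16, 18581713 to 18586969), a T-box factor, stood at 374, 337 and 303 CPM in WT and at 248, 362 and 331 CPM in KO libraries. KO a was again the lowest library, while KO b and KO c lay inside the WT range of Tbx1. Its log2 fold change was −0.11 (95% interval −0.41 to 0.19), and it was 0.036 without KO a. The adjusted p from edgeR was 0.831 for Foxc1 and 0.763 for Tbx1.

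**Figure D4:**
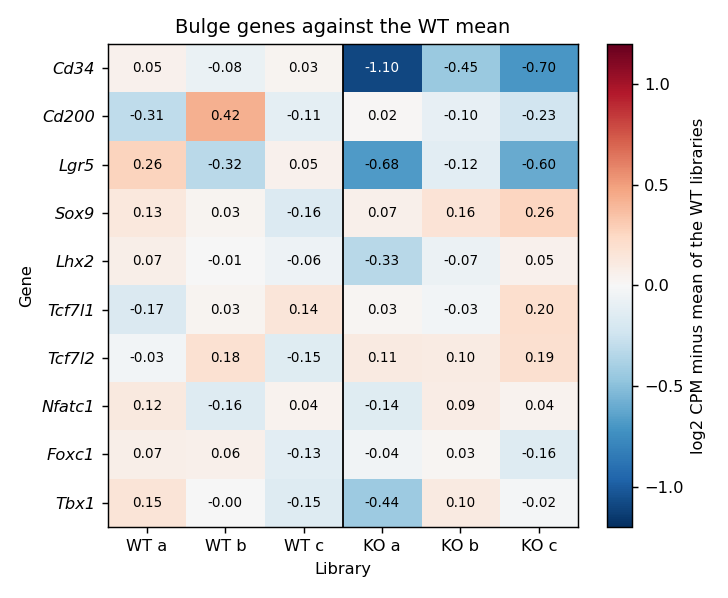
Log2 CPM of each gene (rows) in each library (columns) minus the mean of the 3 WT libraries, with the value written in each cell, blue below and red above the WT mean. The darkest blue cells are Cd34 and Lgr5 in KO a (−1.10 and −0.68) and KO c (−0.70 and −0.60).

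Read library by library, no KO library lay below the WT libraries in all 10 genes. KO a was below the lowest WT library in 4 genes (Cd34, Lgr5, Lhx2 and Tbx1), KO b in 2 and KO c in 3, beside 25.02%, 17.8% and 20.9% of all tested genes in the same libraries. KO a was the lowest of all 6 libraries in those 4 genes, and its median deviation from the WT mean over the 10 genes was −0.092 on the log2 scale, against −0.0041 in KO b and 0.0069 in KO c. Relative to the WT mean, Cd34 stood at 46.7% in KO a, 73.2% in KO b and 61.6% in KO c. Sox9 stood at 104%, 111% and 119% and Nfatc1 at 90.2%, 106% and 102% in the same 3 libraries.

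To compare the genes with each other, CPM were divided by the length of all annotated exons of the gene (CPM per kilobase). In WT libraries Cd34 had the highest level, 117 ± 5.58 (SD, n = 3), followed by Sox9 at 109.7 ± 11.2, Tbx1 at 96.2 ± 10.1, Lhx2 at 81.8 ± 3.73, Lgr5 at 57.1 ± 11.3, Nfatc1 at 52.3 ± 5.06, Cd200 at 37.4 ± 10.2, Foxc1 at 19.4 ± 1.46, Tcf7l1 at 10.8 ± 1.19 and Tcf7l2 at 7.49 ± 0.872. The ranges of the WT libraries overlapped between Cd34 and Sox9, between Sox9 and Tbx1, between Lgr5 and Nfatc1 and between Nfatc1 and Cd200. Such ranges do not pair the genes within a library, so overlap does not show that these neighbours were equal. In KO libraries Sox9 came first at 122 ± 8.32 per kilobase, then Tbx1 at 89.3 ± 16.7, Lhx2 at 75.8 ± 10.03 and Cd34 at 70.8 ± 15.5. The KO ranges of Tbx1 (70.6 to 103), Lhx2 (64.8 to 84.5) and Cd34 (54.7 to 85.7) overlapped, and these too were not paired within a library.

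The genes whose profile over the 6 libraries was most like that of Cd34 were Tns1, Fmo5 and Col8a2. Likeness was the root mean square difference between log2 CPM profiles, each centred on its own mean, among 8574 other genes with a mean log2 CPM above 4. It was 0.040 for Tns1, 0.057 for Fmo5 and 0.080 for Col8a2, beside a median of 0.45. Tns1, which encodes the focal adhesion protein tensin, stood at 590.4, 557 and 549 CPM in WT and at 263, 420.01 and 349 CPM in KO. As in Cd34, KO a was lowest and KO b the highest of the KO libraries. This order, and log2 fold changes near that of Cd34, follow from choosing genes by their likeness to Cd34. Tns1 had a log2 fold change of −0.72 and an adjusted p of 0.0506 from edgeR, just outside the threshold. Col8a2, a short-chain collagen gene, had −0.75 (adjusted p = 0.0621 from edgeR).

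Closest to Lgr5 were Cdon (0.068), Col17a1 (0.087) and Kcnk2 (0.087), beside a median of 0.36. Col17a1, which encodes the hemidesmosomal collagen XVII, stood at 8009, 5511 and 6078 CPM in WT and at 4023, 5992 and 4667 CPM in KO libraries. WT b lay below KO b in it as in Lgr5, which follows from choosing genes by their likeness to Lgr5. The log2 fold change was −0.42 for Col17a1 (adjusted p = 0.375 from edgeR) and −0.57 for Cdon, which encodes a co-receptor of hedgehog ligands (adjusted p = 0.176 from edgeR).

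Of 19 other genes that are known from the bulge, 7 had a log2 fold change above 0 and 12 below, with a median of −0.085, beside a median of 8.82e-05 over all tested genes. The median was 0.027 without WT a, −0.021 without KO a and −0.16 without WT b, so its sign rested on WT a. None passed in edgeR (4 had an unadjusted p below 0.05) or in limma-voom, and in DESeq2 Postn passed. Over all tested genes, 11.5% had an unadjusted p below 0.05 in edgeR and 50% a log2 fold change below 0. Postn, which encodes the matrix protein periostin, stood at 3511, 7558 and 5947 CPM in WT and at 3119, 3555 and 2886 CPM in KO libraries, with a log2 fold change of −0.83 (SE 0.22, adjusted p = 0.124 from edgeR). The 3 KO libraries lay close together, and WT a lay among them. Barx2, a homeobox gene of the follicle, was higher in each KO than in each WT library (log2 fold change 0.28, adjusted p = 0.220 from edgeR), and Dkk3, of the Dickkopf family, had −0.29 (adjusted p = 0.369 from edgeR). Krt15, the keratin used most often as a bulge marker, had 15459, 9798 and 12291 CPM in WT and 9616, 12495 and 10396 CPM in KO libraries, which overlap.

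Among 15 tested genes of Wnt and TCF/LEF signaling, 0 passed in edgeR and limma-voom, and Tle3 and Axin2 passed in DESeq2. In edgeR 4 had an unadjusted p below 0.05, beside 11.5% of all tested genes. Axin2, a feedback inhibitor and widely used readout of Wnt signaling, stood at 48.9, 45.0 and 36.2 CPM in WT and at 24.7, 34.5 and 22.6 CPM in KO libraries. The groups did not overlap, and the log2 fold change was −0.67 (SE 0.16, adjusted p = 0.1003 from edgeR). Tle3, which encodes a Groucho co-repressor that TCF factors recruit, stood at 144, 120.2 and 108 CPM in WT and at 187, 155 and 179 CPM in KO libraries, with a log2 fold change of 0.49 (adjusted p = 0.0955 from edgeR). Tcf7, the paralog of Tcf7l1 and Tcf7l2 that mostly activates, had 0.45 (adjusted p = 0.205 from edgeR). The median over the 15 genes was −0.0019, with 0.091 without WT a and −0.073 without WT b.

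Of 19 genes around NFATC1 (calcineurin subunits, other NFAT factors, BMP ligands with their effectors, and genes known downstream), 1 passed in edgeR, beside 0.673% of all tested genes. It was Prlr, the receptor for prolactin, which is known from the NFATC1 pathway of follicle SCs. Prlr (ENSMUSG00000005268) stood at 115, 122 and 99.8 CPM in WT and at 62.1, 85.3 and 59.6 CPM in KO libraries. All KO libraries lay below all WT libraries, with a log2 fold change of −0.70 (SE 0.14, 95% interval −1.003 to −0.41, adjusted p = 0.0452 from edgeR). Prlr kept the call in 4 of 12 alternatives, DESeq2 among them and limma-voom not, with an adjusted p between 0.00127 and 0.380. In edgeR the call was lost without WT b (adjusted p = 0.101), WT c (0.363), KO a (0.380) or KO c (0.196). The calcineurin subunit genes Ppp3ca, Ppp3cb and Ppp3r1 had log2 fold changes of −0.068, −0.0085 and 0.042. Bmp6, a ligand of the quiescence-promoting BMP pathway, had 0.95 (SE 0.21, adjusted p = 0.0708 from edgeR), and passed in DESeq2. Cdk4 had 0.30 (adjusted p = 0.246 from edgeR) and Rcan1 0.29 (adjusted p = 0.453 from edgeR). An unadjusted p below 0.05 was found for 4 of the 19, beside 11.5% of all tested genes. Prlr and Nfatc4 were lower and Bmp6 and Cdk4 higher in KO. The groups did not overlap for 5 genes higher and 2 lower in KO, beside 8.03% and 8.23% of all tested genes. These calcineurin genes, Bmp6, Cdk4 and Rcan1 were chosen after their values were seen. The median over the list was 0.033, with 0.10 without WT c and 0.093 without KO a.

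In the upper follicle list, 1 of 5 genes passed in edgeR, beside 0.673% of all tested genes. An unadjusted p below 0.05 was found for 3 of the 5 (Plet1, Lrig1 and Krt79), beside 11.5% of all tested genes. Plet1, a marker of the junctional zone above the bulge, rose from 94.9, 63.2 and 79.5 CPM in WT to 165, 132 and 125 CPM in KO libraries, with a log2 fold change of 0.83 (SE 0.15, adjusted p = 0.0325 from edgeR). It kept the call in 5 of 12 alternatives and lost it in limma-voom (adjusted p = 0.111) and, in edgeR, without WT b (0.0523), WT c (0.368), KO a (0.306) or KO c (0.0739). Lrig1 (0.38, adjusted p = 0.271 from edgeR) and Krt79 (0.92, adjusted p = 0.355 from edgeR) lay above 0 and Lgr6 (−0.26) and Gata6 (−0.23) below 0.

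**Figure D5:**
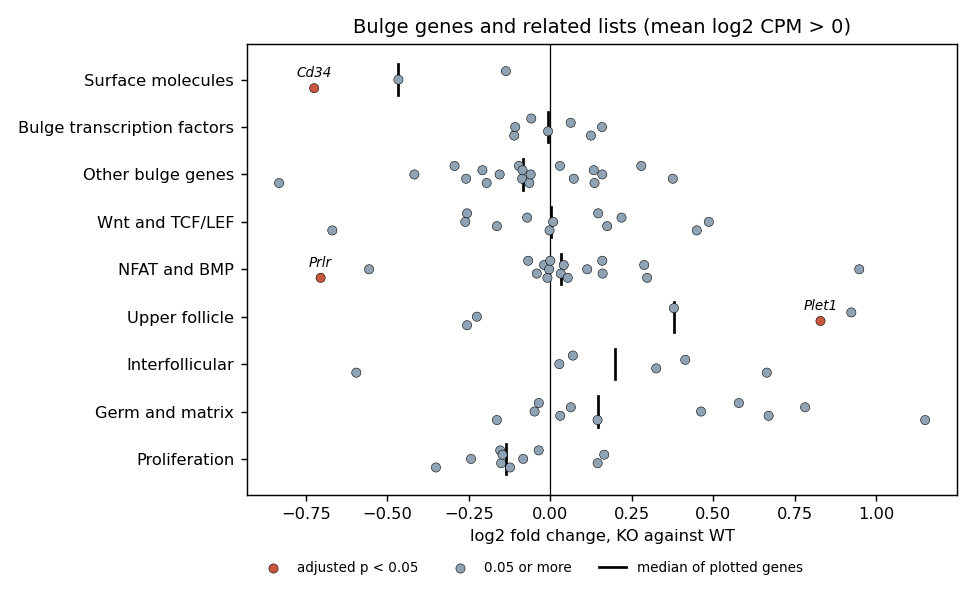
Log2 fold change of KO against WT for each gene of the 10 bulge genes, by class, and of 7 lists of related genes (rows), for genes with a mean log2 CPM above 0, which leaves out 5, where each point is a gene, red where the adjusted p was below 0.05 in edgeR, and the black bar is the median of the plotted genes of a row. Cd34 and Prlr on the left and Plet1 on the right are the red points.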

How the data were processed

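GFP-positive keratinocytes were sorted from 3 WT and 3 KO mice. The authors made stranded libraries from polyadenylated RNA, aligned single reads to the mouse genome (build 38, Ensembl gene models) with TopHat (2.1.0 in the submitters' processing notes, with Bowtie 1.1), and deposited raw counts of uniquely mapped reads per gene, strand respected and not normalized. Dropping reads with several matches can lower genes with near-identical copies. Counts above 0 in at least 1 library were tested in R 4.3.3 with edgeR 4.0.16 (TMM, glmQLFit, glmQLFTest). Alternatives were limma-voom (limma 3.58.1, the tool of the study), DESeq2 1.42.0, library size only, upper-quartile factors, filterByExpr, at least 10 counts in every library, and each library left out. Per the study's methods and the column names each library came from another mouse, so p-values measure the spread between mice. Floors and counting errors cover counting error only. Exon lengths came from GENCODE M21 (GRCm38), matched by identifier for 22049 of 22295 genes, and promoter windows from RefSeq. The code was tested on simulated data. The 10 genes and all lists were chosen with earlier results of these data known. Named are the 10 genes, Itga3, the 3 genes most like Cd34 and Lgr5, and of each list the genes with an adjusted p below 0.05, otherwise up to 3 with the smallest p, and for each other cell type its most abundant marker. Further genes were chosen with their values in view.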

Additional observations from a re-analysis of the deposited data

How the results depend on the processing

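The number of genes with an adjusted p below 0.05 was 24 in limma-voom, 546 in DESeq2, 15 with filterByExpr and 12 where each library had to hold 10 counts or more, and it ranged from 5 to 521 when 1 library was left out. The log2 fold change of Cd34 was −0.75 in limma-voom, −0.73 with filterByExpr and −0.73 where each library had to hold 10 counts or more, none of which kept the call, and it ranged from −0.87 to −0.57 when 1 library was left out; the cause of the lost calls was not tested. Signs changed only in fits with 1 library left out: Nfatc1 (range −0.082 to 0.060) had 0.060 without WT a, 0.011 without WT c and 0.060 without KO a, Tcf7l1 (to 0.14) had −0.013 without WT a and −0.0093 without KO c, Tbx1 (from −0.21) had 0.036 without KO a, and Cd200 (from −0.27) had 0.11 without WT b. Lgr5, Sox9, Lhx2, Tcf7l2 and Foxc1 kept their sign and their side of the threshold in all 12 alternatives. By CPM without division by exon length, the place of Sox9 in the order of WT levels was 3, of Tbx1 6, of Lhx2 5, of Lgr5 2, of Nfatc1 4, of Tcf7l1 10 and of Tcf7l2 9. Of the list medians of related genes under the alternatives, 48 moved by less than the spread between libraries and 8 by more. No paired analysis was possible because the columns of the count table carry no replicate numbers. The labels number the samples within each genotype but name no pairs of WT and KO mice, so no paired design is known.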

Other observations

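Other gene groups of the follicle and epidermis were measured in the same libraries. Of 11 genes of the hair germ and matrix, 8 had a log2 fold change above 0 and 3 below, with a median of 0.15 that was 0.30 without WT a and 0.053 without WT c. None passed in edgeR, limma-voom or DESeq2, and 4 had an unadjusted p below 0.05 in edgeR. Over all tested genes, 11.5% had such a p and 50% a log2 fold change below 0. The 3 with the smallest p were Edar, the ectodysplasin receptor, at 1.65, 0.962 and 0.705 CPM in WT and 2.51, 1.97 and 2.90 CPM in KO libraries (adjusted p = 0.168 from edgeR), Ovol1, a zinc finger factor of epidermal commitment (log2 fold change 0.78, adjusted p = 0.180 from edgeR), and the homeobox gene Dlx3 (0.46, adjusted p = 0.223 from edgeR). Dlx3 lies on chromosome 11 at 95120119 to 95125296, close to the targeted Itga3 at 95044474 to 95076801. An effect of the altered Itga3 locus on Dlx3 was not tested. The 6 interfollicular genes had a median of 0.20, which was 0.036 without WT a and 0.32 without WT b, with 5 above 0 and 0 past the threshold in edgeR, limma-voom and DESeq2 (2 at an unadjusted p below 0.05). Tgm1, a cross-linking enzyme of the cornified envelope, had 0.66 (adjusted p = 0.183 from edgeR), Ly6d 0.41 and Ly6a −0.60.

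Of 13 genes related to the bulge genes by family or kind of product, 0 passed in the 3 tools. In edgeR 4 had an unadjusted p below 0.05, beside 11.5% of all tested genes. The list holds no relative of Cd200 or Tbx1. Its median was 0.22, with 0.048 where each library had to hold 10 counts or more and 0.13 without KO a. Nfatc4 stood at 14.8, 22.3 and 20.1 CPM in WT and at 12.6, 13.2 and 13.1 CPM in KO libraries (log2 fold change −0.56, adjusted p = 0.153 from edgeR), and Podxl, a sialomucin related to Cd34, at 0.367, 0.595 and 0.661 CPM in WT and 1.02, 0.891 and 1.93 CPM in KO libraries. Of the LGR5 paralogs, Lgr4 had a log2 fold change of 0.22 and Lgr6 of −0.26.

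The 10 proliferation genes summed to 419.5, 933 and 1117 CPM in WT and to 719, 676 and 985 CPM in KO, so that the WT libraries spanned the KO range. Of these genes, 8 had a log2 fold change below 0, and 0 had an unadjusted p below 0.05 or passed in edgeR, limma-voom or DESeq2. Their median was −0.13, and it was −0.55 without WT a, 0.040 without WT b, 0.23 without WT c and 0.012 without KO b. Pcna had 0.17, Mcm2 0.15 and Ccnb1 −0.35. Immune markers summed to at most 6.52 CPM, with Cd68 the most abundant, and melanocyte markers to at most 12.6 CPM, with Dct the most abundant. Tek was the most abundant endothelial marker in WT, at 5.23, 3.76 and 2.16 CPM, with 1.06, 1.55 and 1.35 CPM in KO libraries.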
